A study of Mus musculus with 20 samples.

Results

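The families of the bacterial order Oscillospirales other than its largest one, Oscillospiraceae, were described in mouse feces after a chemotherapy cycle. Their members were every family, genus and species entry of the read count tables that was placed in Oscillospirales, lay outside the family Oscillospiraceae_88309 and had a count above 0 in any sample. By this rule 5 of 45 families with counts, 24 of 149 genus entries and 34 of 204 species entries were members. The families were Ruminococcaceae with 3021 reads over all samples, Acutalibacteraceae with 1807, Butyricicoccaceae with 505, and the small families CAG-272 with 62 and QAKW01 with 2. A sixth listed family had no reads. Together the members held 5397 reads, which was 0.598% of all reads and 9.43% of the reads of Oscillospirales.

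Bacterial 16S rRNA genes, amplified over the V4 region and sequenced on an Illumina MiSeq, were counted in feces of 20 mice, 10 control and 10 FO. The mice were C57BL/6, female by the study's methods, aged 8 to 14 weeks and cohoused for at least 10 days, with no other allele or treatment named. FO mice were injected intraperitoneally with oxaliplatin at 3.5 mg/kg, with 5-fluorouracil at 50 mg/kg 1 hour later, and with a second dose of 5-fluorouracil on the following day. Control mice received PBS or water on the same schedule, and feces were taken 5 days after treatment. Each group held 5 samples of batch E53B and 5 of batch E56A, the labels' own names, and the cage of each mouse was not given. A read count gives the share of a taxon among all bacterial reads, so a higher share of one taxon and less of all others cannot be told apart, and shares of reads are not shares of cells.

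Ruminococcaceae, Acutalibacteraceae and Butyricicoccaceae are strictly anaerobic Firmicutes of the class Clostridia that live in the large intestine of mammals. Several of their genera break down plant fibre or resistant starch, and others ferment sugars and organic acids to acetate, lactate or butyrate, a short-chain fatty acid on which the cells lining the colon feed. Names with a letter or number suffix, such as Ruminiclostridium_E, and coded names such as UBA946 are those of a genome-based taxonomy, in which codes stand for bacteria known mainly from their genomes.

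Total counts ran from 17218 to 57415 per sample, and the members had 32 to 564 of them. A taxon with no read could still hold up to 3 reads, which was 0.0174% of the reads in FO replicate 6, the shallowest sample. Such limits, and the intervals given for single samples, express counting error alone, because PCR copies of 1 molecule are counted as separate reads. Muribaculaceae, the leading family, fell from 78.9% ± 5.61 (SD, n = 10) of reads in control feces to 53.4% ± 9.12 (SD, n = 10) in FO feces. Reads outside Muribaculaceae made up 21.1% ± 5.61 (SD, n = 10) and 46.6% ± 9.12 (SD, n = 10). The families and the genera tested are therefore given both as a share of all reads and as a share of the reads outside Muribaculaceae.

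As a share of all reads, the 5 families together were higher in FO feces. Control samples held 0.0582% at the lowest, 0.489% at the median and 0.606% at the highest, against 0.315%, 0.741% and 1.12% in FO samples. Of the FO samples, 8 of 10 lay above every control sample. The means were 0.419% ± 0.172 (SD, n = 10) and 0.793% ± 0.267 (SD, n = 10), a 1.89-fold difference. It was 1.77-fold in batch E53B and 2.04-fold in batch E56A.

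As a share of the reads outside Muribaculaceae, the direction of the means turned. Control samples ran from 0.441% through a median of 2.19% to 2.81%, and FO samples from 0.642% through 1.81% to 2.55%. The groups overlapped over most of their range, with means of 1.98% ± 0.823 (SD, n = 10) and 1.73% ± 0.531 (SD, n = 10). FO samples were at 0.774 times the control mean in batch E53B and at 1.01 times in batch E56A. As a share of the reads of Clostridia, the members made up 3.35% ± 0.856 (SD, n = 10) in control and 2.77% ± 0.637 (SD, n = 10) in FO feces. Sums over the members were not tested, since the members were chosen with earlier results of these data known.

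**Figure D1:**
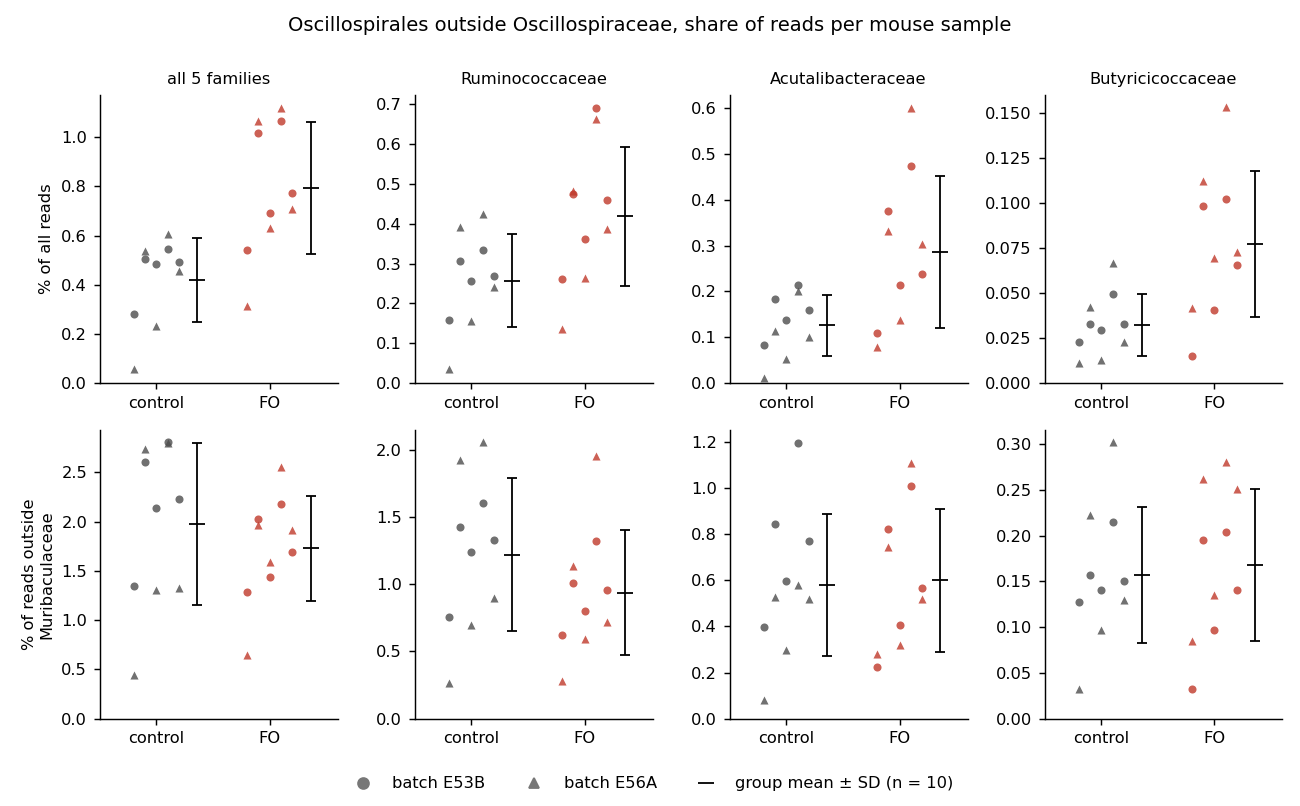
Share of reads of all 5 families and of the 3 largest, as percent of all reads (upper row) and percent of reads outside Muribaculaceae (lower row), with 1 point per sample, circles for batch E53B and triangles for batch E56A, and bars for the group mean ± SD (n = 10). In the upper row 8 of 10 FO samples lie above every control sample for all 5 families together, whereas in the lower row the groups overlap in each panel.

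Ruminococcaceae, the family of many fibre degraders, was the largest of the 5. Its share of all reads was 0.0346%, 0.262% and 0.425% at the lowest, median and highest control sample and 0.136%, 0.423% and 0.691% in FO samples. Of the FO samples, 5 of 10 exceeded the whole control range. Outside Muribaculaceae its mean was 1.22% ± 0.568 (SD, n = 10) in control and 0.937% ± 0.465 (SD, n = 10) in FO feces, and 8 of 10 FO samples lay below the control median.

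Acutalibacteraceae, a family described from a mouse gut isolate, held 0.0109%, 0.126% and 0.214% of all reads at the lowest, median and highest control sample. In FO samples these values were 0.0785%, 0.271% and 0.601%, with 6 of 10 above every control sample. Outside Muribaculaceae the means were nearly equal, at 0.581% ± 0.308 (SD, n = 10) and 0.601% ± 0.310 (SD, n = 10).

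Butyricicoccaceae, which includes butyrate producers, held 0.0112%, 0.0309% and 0.0667% of all reads in control samples and 0.0148%, 0.0710% and 0.153% in FO samples, again the lowest, median and highest. Here too 6 of 10 FO samples exceeded the whole control range. Outside Muribaculaceae the means were 0.157% ± 0.0744 (SD, n = 10) and 0.168% ± 0.0834 (SD, n = 10).

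Counts were tested with the quasi-likelihood test of edgeR, with batch as a term and p adjusted by Benjamini-Hochberg over all families or genera that passed the filter on low counts, under 3 scalings of the libraries. TMM, the main one, sets most taxa to no change, the second uses the total reads, and the third the reads outside Muribaculaceae. The choice moves the median log2 change of the 25 families tested from -0.30 under TMM to 1.03 under total reads and -0.10 under reads outside Muribaculaceae. The medians of the genera tested were 0.23, 0.99 and -0.19 in the same order, and those of the species entries tested 0.29, 0.99 and -0.14. Each change given below is therefore to be read against the median of its own rank and scaling.

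Under TMM 0 of 3 member families passed the threshold of 5%, against 4.0% of all families tested, and 0 of the 3 had an unadjusted p under 0.05. The log2 change was -0.36 ± 0.34 (SE) for Ruminococcaceae, 0.03 ± 0.36 (SE) for Acutalibacteraceae and 0.04 ± 0.40 (SE) for Butyricicoccaceae. DESeq2 also called 0 of the 3, beside 8.0% of families, and limma on centred log ratios 0 of the 3, beside 4.0%. Under reads outside Muribaculaceae 0 of 3 passed in edgeR as well, again beside 4.0% of families and with 0 of the 3 at an unadjusted p under 0.05.

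Under total reads Acutalibacteraceae and Butyricicoccaceae rose. The log2 change was 1.23 for Acutalibacteraceae (edgeR, adjusted p = 0.0224, 95% interval 0.29 to 2.16) and 1.24 for Butyricicoccaceae (edgeR, adjusted p = 0.0136, 95% interval 0.38 to 2.10). For Ruminococcaceae it was 0.70 (edgeR, adjusted p = 0.115). Higher calls made up 52.0% of all families under this scaling, and the 2 changes lay close to the median family. The same 2 families passed a two-sided permutation test of their share of all reads (adjusted p = 0.0167 and 0.0108), in which 45.2% of 31 families were higher, and Ruminococcaceae did not (adjusted p = 0.0518). Without FO replicate 3 the adjusted p of Acutalibacteraceae was 0.0544, while that of Butyricicoccaceae stayed at 0.0264 or below whichever sample was left out.

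The makeup of the members is given as a description, with no test. Ruminococcaceae was the leading member family in 10 of 10 control samples, whereas in FO samples Ruminococcaceae led in 5 and Acutalibacteraceae in 5. In control feces 61.0% ± 7.46 (SD, n = 10) of the members' reads were Ruminococcaceae and 29.1% ± 9.72 (SD, n = 10) Acutalibacteraceae. In FO feces these shares were 52.6% ± 13.5 (SD, n = 10) and 36.2% ± 15.7 (SD, n = 10), and 6 of 10 FO samples had a lower share of Ruminococcaceae than every control sample. By batch, the mean share of Ruminococcaceae was 57.2% in control and 54.6% in FO feces of batch E53B, and 64.7% and 50.5% in batch E56A. That of Acutalibacteraceae was 33.5% and 34.99% in batch E53B, and 24.7% and 37.3% in batch E56A.

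At the genus level Ruminiclostridium_E led in 4 of 10 control samples and in no FO sample. In FO samples Acutalibacter led in 3, Anaerotruncus in 3, Fimenecus in 3 and Angelakisella in 1. Control samples had Fimenecus in the lead in 2, and Acutalibacter, Eubacterium_R, Pseudobutyricicoccus and Ruthenibacterium in 1 each. The leading genus thus varied among samples of the same treatment. Control replicate 5 had only 32 member reads, so its makeup is the least certain.

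**Figure D2:**
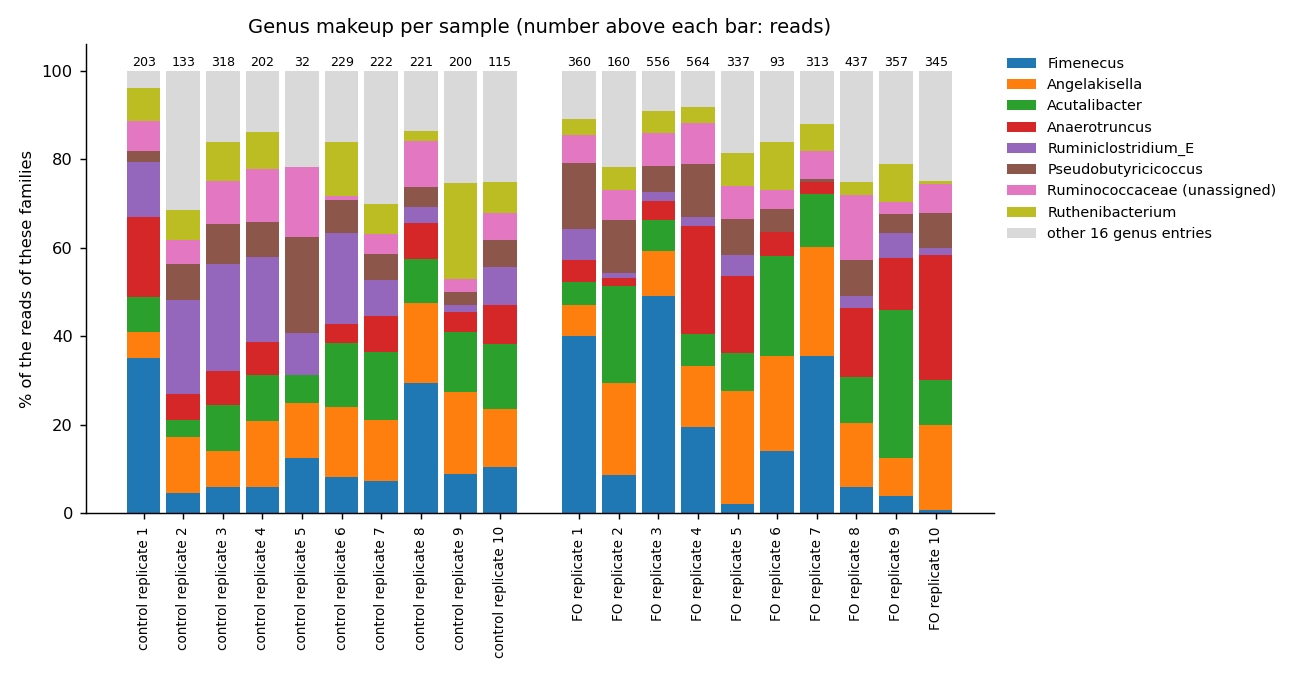
Percent of the members' reads in each genus, 1 bar per sample, for the 8 genera with the highest mean and the other 16 together, with the number of member reads above each bar. Ruminiclostridium_E, in purple, takes up to 24.2% of a bar in control samples and at most 6.94% in FO samples.

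Of the 24 genus entries, 8 passed the filter on low counts and were tested, and these held 83.2% of the members' reads. The other 16 had 2 to 192 reads each. Under TMM 1 of the 8 fell and 0 rose, against 22.0% of the 59 genera tested passing in either direction and 11.9% being lower. The median log2 change was 0.44 over the 8 and 0.23 over all 59.

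Ruminiclostridium_E was the genus that fell. All its reads were assigned to Ruminiclostridium_E siraeum, the species long known as Eubacterium siraeum, a gut anaerobe that breaks down starch and plant cell walls. As a share of all reads it was 0.00546%, 0.0440% and 0.147% at the lowest, median and highest control sample and 0%, 0.0225% and 0.0570% in FO samples. The groups overlapped, with 3 of 10 control samples above every FO sample and, of the FO samples with reads, only FO replicate 2, with 2 reads, below every control sample.

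Outside Muribaculaceae its share ran from 0.0392% through 0.171% to 0.664% in control samples and from 0% through 0.0398% to 0.122% in FO samples. In total 6 of 10 control samples lay above every FO sample, and 10 of 10 FO samples lay below the control median. The means were 0.256% ± 0.219 (SD, n = 10) and 0.0522% ± 0.0488 (SD, n = 10). The difference of -0.204 percentage points passed a two-sided permutation test adjusted over 83 genera (p = 0.00303, adjusted p = 0.0314), in which 10.8% of genera were lower.

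FO replicates 6 and 7 had 0 reads of the genus, which allows up to 0.0174% and 0.00740% of their reads and does not place them below the lowest control sample at 0.00546%. Control replicates 5 and 9 had 3 reads each, so low levels occurred in both groups. Control replicate 3 had the most, with 77 reads of 52475, or 0.147% (95% Wilson interval 0.117% to 0.183%). Of the reads of the members alone, Ruminiclostridium_E made up 12.9% ± 7.91 (SD, n = 10) in control and 2.71% ± 2.34 (SD, n = 10) in FO feces, and 8 of 10 control samples lay above every FO sample.

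The log2 change of Ruminiclostridium_E was -1.88 under TMM (edgeR, adjusted p = 0.0258, 95% interval -3.13 to -0.64). It was -2.24 under reads outside Muribaculaceae (edgeR, adjusted p = 0.0181), where 15.3% of genera were lower, and -1.21 under total reads (edgeR, adjusted p = 0.113). DESeq2 gave -2.05 (adjusted p = 0.00194, with 15.3% of genera lower) and limma on the centred log ratio -2.22 (adjusted p = 0.00877, with 10.2% lower). The call under TMM was lost without FO replicate 4 (adjusted p = 0.0528), FO replicate 10 (0.0527), control replicate 3 (0.0531) or control replicate 6 (0.0657). Over all 20 edgeR fits that left out 1 sample each the change lay between -2.23 and -1.64. Under reads outside Muribaculaceae the call was lost, in such fits, only without control replicate 6 (edgeR, adjusted p = 0.0642). Under total reads the change in such fits lay between -1.61 and -0.90, and 1 of 20 passed, that without FO replicate 9 (edgeR, adjusted p = 0.0477). Under TMM with no filter on low counts, which put 149 genera in the adjustment, the adjusted p was 0.0703 in edgeR, and 4.03% of genera were lower.

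In batch E56A alone the log2 change of Ruminiclostridium_E was -1.95 (edgeR, adjusted p = 0.155), and 0 of 62 genera, or 0.0%, passed there by edgeR, with 11 at an unadjusted p under 0.05. In batch E53B alone the genus did not pass the filter on low counts. The mean share outside Muribaculaceae was 0.203 times the control mean over both batches, 0.231 times in batch E53B (p = 0.0635 by an exact permutation test of 5 against 5) and 0.189 times in batch E56A (exact permutation test, p = 0.0317). Adjusted over the genera, these were 0.293 and 0.366 and did not pass. The smallest p that 5 against 5 samples allow is 0.00794. The test of a difference between the batches gave a log2 value of -0.21 (edgeR, adjusted p = 0.916, 95% interval -2.82 to 2.40).

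**Figure D3:**
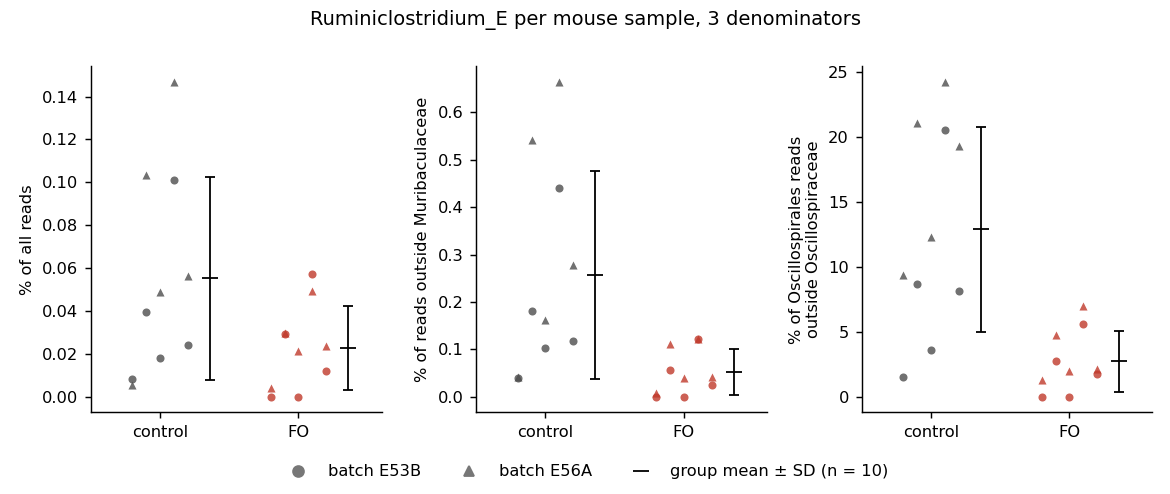
Ruminiclostridium_E in each sample as percent of all reads, of reads outside Muribaculaceae and of the members' reads, with circles for batch E53B, triangles for batch E56A and bars for the group mean ± SD (n = 10). In the right panel 8 of 10 control samples lie above every FO sample, and the FO sample with the highest share is at 6.94%.

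Angelakisella, a genus described from the human gut, was the most abundant named genus of Ruminococcaceae, and all its reads were assigned to Angelakisella massiliensis. It held 0.00728%, 0.0586% and 0.101% of all reads at the lowest, median and highest control sample and 0.0492%, 0.124% and 0.190% in FO samples, with 7 of 10 FO samples above every control sample. Outside Muribaculaceae the means were 0.276% ± 0.161 (SD, n = 10) and 0.281% ± 0.157 (SD, n = 10). The log2 change was 0.50 under TMM (edgeR, adjusted p = 0.354) and 1.17 under total reads (edgeR, adjusted p = 0.0157). Under total reads 42.4% of genera were called higher, and the median change was 0.99. The adjusted p was at most 0.0311 whichever sample was left out.

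Anaerotruncus, a genus of butyrate and acetate producers, varied widely among FO samples. It held 0%, 0.0319% and 0.0830% of all reads at the lowest, median and highest control sample and 0.00591%, 0.0782% and 0.272% in FO samples. The 5 FO samples above every control sample had 42 to 137 reads of it, and the other 5 had 3 to 24. These same 5 samples were above every control sample outside Muribaculaceae too, where the means were 0.147% ± 0.0777 (SD, n = 10) and 0.218% ± 0.180 (SD, n = 10). Its log2 change was 0.93 under TMM (edgeR, adjusted p = 0.274) and 1.59 under total reads (edgeR, adjusted p = 0.0396). The latter call was lost without any one of 12 samples, namely FO replicates 4, 5, 8, 9 and 10 and control replicates 2, 4, 6, 7, 8, 9 and 10 (adjusted p from 0.0522 to 0.124).

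Ruthenibacterium, whose reads were all assigned to the lactate producer Ruthenibacterium lactatiformans, had nearly the same share of all reads in the groups, 0.0389% ± 0.0334 (SD, n = 10) in control and 0.0411% ± 0.0237 (SD, n = 10) in FO feces. Outside Muribaculaceae the means were 0.179% and 0.0945%, and 4 of 10 control samples lay above every FO sample. The log2 change was -0.51 under TMM (edgeR, adjusted p = 0.530), -0.89 under reads outside Muribaculaceae (edgeR, adjusted p = 0.347) and 0.11 under total reads (edgeR, adjusted p = 0.847). Reads of Ruminococcaceae with no genus assigned made up 0.0287% ± 0.0219 (SD, n = 10) of reads in control and 0.0601% ± 0.0422 (SD, n = 10) in FO feces, and 0.140% and 0.128% of those outside Muribaculaceae. Their log2 change was 0.36 under TMM (edgeR, adjusted p = 0.583).

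The remaining genera of Ruminococcaceae were sparse. Ruminococcus_C_59129, whose name before the suffix is that of a genus known for fibre degradation, had 46 reads in control and 43 in FO samples. These were 0.00950% and 0.00881% of all reads on average. It made up 0.0494% ± 0.0439 (SD, n = 10) and 0.0191% ± 0.0148 (SD, n = 10) of the reads outside Muribaculaceae, with 6 of 10 control samples above every FO sample. In the fit with no filter its log2 change was -0.92 (edgeR, adjusted p = 0.470). Hydrogenoanaerobacterium, named for the hydrogen it releases, had 27 and 64 reads, and as a share of all reads 6 of 10 FO samples exceeded the whole control range. Its difference in that share, from 0.00621% to 0.0156%, passed a two-sided permutation test adjusted over 83 genera (adjusted p = 0.0304), in which 36.1% of genera were higher. Outside Muribaculaceae it was at 0.0310% and 0.0335%.

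Paludicola had 61 reads in control and 96 in FO samples, UBA946 31 and 67, QAMM01 13 and 22, Massilioclostridium 13 and 19, and Harryflintia, an acetate producer, 3 and 13. These 5 genera did not pass the filter on low counts. Phocea, named although few reads were counted, had 7 reads, all in 2 control samples.

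In Acutalibacteraceae, Fimenecus was the genus with the most reads of all members, 957. Its share of all reads was 0.00728%, 0.0356% and 0.159% at the lowest, median and highest control sample and 0.00602%, 0.0694% and 0.524% in FO samples. FO samples thus lay both below and above the whole control range, 1 below and 4 above. Outside Muribaculaceae its means were 0.244% ± 0.233 (SD, n = 10) and 0.308% ± 0.325 (SD, n = 10). The log2 change was 0.63 under TMM (edgeR, adjusted p = 0.554) and 1.37 under total reads (edgeR, adjusted p = 0.107). In separate fits under TMM it was -0.41 in batch E53B and 1.67 in batch E56A. In a single fit of all samples, scaled apart from these, the difference of 1.83 between the batches did not pass (edgeR, adjusted p = 0.703, 95% interval -0.83 to 4.49).

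Acutalibacter, whose type species was isolated from mice, held 0.00364%, 0.0529% and 0.0742% of all reads at the lowest, median and highest control sample and 0.0374%, 0.0772% and 0.339% in FO samples, with 5 of 10 FO samples above every control sample. Outside Muribaculaceae the means were 0.224% ± 0.122 (SD, n = 10) and 0.230% ± 0.184 (SD, n = 10). The log2 change was 0.45 under TMM (edgeR, adjusted p = 0.417) and 1.08 under total reads (edgeR, adjusted p = 0.0396). The latter call was lost without any one of 10 samples, which were FO replicates 3, 4 and 9 and control replicates 1, 2, 6, 7, 8, 9 and 10 (adjusted p from 0.0507 to 0.112).

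By species, 400 of the 631 reads of Acutalibacter were Acutalibacter timonensis and 139 were Acutalibacter muris, named after the mouse. Acutalibacter timonensis held 0.0275% ± 0.0169 (SD, n = 10) of reads in control and 0.0704% ± 0.0585 (SD, n = 10) in FO feces, with 6 of 10 FO samples above every control sample. Acutalibacter muris was found in 8 control and 7 FO samples, at 0.0121% ± 0.0108 (SD, n = 10) and 0.0226% ± 0.0327 (SD, n = 10). The log2 change of Acutalibacter timonensis under TMM was 0.66 (edgeR, adjusted p = 0.317), and Acutalibacter muris was too sparse for the test.

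Eubacterium_R had 103 reads in control and 89 in FO samples. Its share of all reads was nearly equal, at 0.0226% ± 0.0213 (SD, n = 10) and 0.0227% ± 0.0256 (SD, n = 10), and it was 0.109% ± 0.102 (SD, n = 10) and 0.0495% ± 0.0536 (SD, n = 10) of the reads outside Muribaculaceae (two-sided permutation tests, adjusted p = 0.993 and 0.326). Hydrogeniiclostridium had 8 reads, all in 4 FO samples, UBA5905 had 6 reads and the reads of Acutalibacteraceae without a genus numbered 13.

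Butyricicoccaceae was made up of Pseudobutyricicoccus, with 405 reads, and Butyricicoccus_A_77030, with 100. Pseudobutyricicoccus held 0.0112%, 0.0210% and 0.0553% of all reads at the lowest, median and highest control sample and 0.00494%, 0.0523% and 0.133% in FO samples, with 4 of 10 FO samples above every control sample and 1 below. Outside Muribaculaceae its means were 0.129% ± 0.0665 (SD, n = 10) and 0.131% ± 0.0749 (SD, n = 10). Its log2 change was 0.44 under TMM (edgeR, adjusted p = 0.491), 1.16 under total reads (edgeR, adjusted p = 0.0368) and -0.03 under reads outside Muribaculaceae (edgeR, adjusted p = 0.961). The call under total reads was lost without any one of FO replicates 1, 4 and 8 and control replicates 1, 2, 5, 9 and 10 (adjusted p from 0.0530 to 0.0787).

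All reads of Butyricicoccus_A_77030 were assigned to Butyricicoccus_A_77030 pullicaecorum, a butyrate producer first isolated from the chicken caecum. It was found in 6 of 10 control and 10 of 10 FO samples, at 0.00607% ± 0.00645 (SD, n = 10) and 0.0163% ± 0.0116 (SD, n = 10) of all reads. This difference passed the two-sided permutation test over 83 genera (adjusted p = 0.0391), in which 36.1% of genera were higher in FO feces. Outside Muribaculaceae the shares were 0.0285% and 0.0371%, and that difference did not pass (adjusted p = 0.687).

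**Figure D4:**
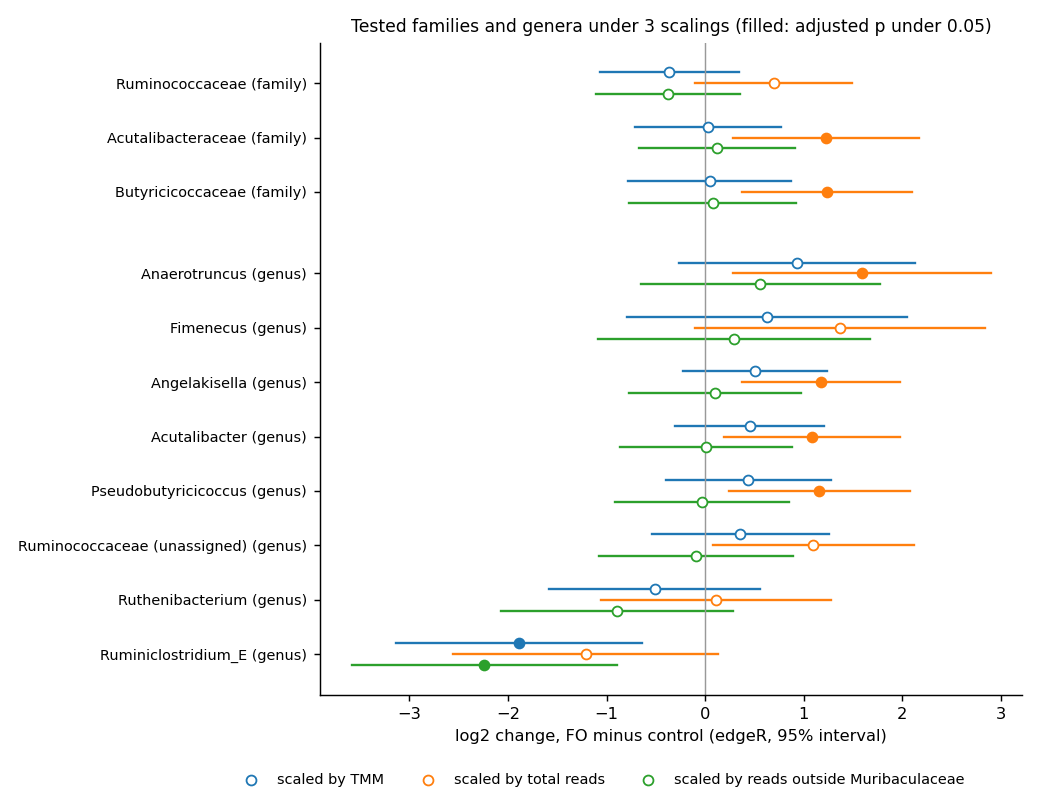
Log2 change between FO and control feces, with 95% intervals from edgeR, for the 3 member families and 8 member genera tested, under scaling by TMM (blue), total reads (orange) and reads outside Muribaculaceae (green). Filled points passed an adjusted p of 0.05, which Ruminiclostridium_E did under TMM (-1.88) and reads outside Muribaculaceae (-2.24), and 2 families and 4 genera did under total reads.

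Genera were also grouped by lists of names with known roles, matched on the name before any suffix. A role given here thus rests on the name alone. Of 4 names listed as plant fibre or starch degraders, 3 matched genera with counts, namely Ruminococcus_C_59129, Ruminiclostridium_E and Acutalibacter. They held 0.112% ± 0.0599 (SD, n = 10) of all reads in control and 0.137% ± 0.0940 (SD, n = 10) in FO feces, a mean that was 0.108% without FO replicate 9. Of the reads outside Muribaculaceae they held 0.530% ± 0.274 (SD, n = 10) and 0.301% ± 0.203 (SD, n = 10). Of the 2 tested, 1 fell and 0 rose under TMM and under reads outside Muribaculaceae, and 1 rose and 0 fell under total reads. Ruminiclostridium_E was the one that fell, beside 11.9% and 15.3% of all genera that were lower under these scalings. Acutalibacter was the one that rose, beside 42.4% of all genera that were higher, and its call was lost in 10 of 20 fits that left out 1 sample each. Of 8 names listed as butyrate producers, 2 matched genera with counts, Anaerotruncus and Butyricicoccus_A_77030. These held 0.0394% ± 0.0219 (SD, n = 10) and 0.116% ± 0.0972 (SD, n = 10) of all reads, and 0.176% ± 0.0768 (SD, n = 10) and 0.255% ± 0.202 (SD, n = 10) of those outside Muribaculaceae. Only Anaerotruncus of these passed the filter, with no call under TMM or reads outside Muribaculaceae and, beside the same 42.4%, a rise under total reads that was lost in 12 of 20 such fits. Pseudobutyricicoccus, with 405 of the 505 reads of Butyricicoccaceae, was not on the list, and its means outside Muribaculaceae, given above, were nearly equal. The sums of the list thus do not stand for all butyrate producers among the members.

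Of the 34 species entries, 8 were tested, and 17 carried a species name. Under TMM 1 of the 8 fell, Ruminiclostridium_E siraeum (log2 change -1.87, edgeR, adjusted p = 0.0249), and 0 rose, beside 14.1% of the 71 species entries tested that were lower. Among the 20 fits that left out 1 sample each, this call was lost only without control replicate 6 (edgeR, adjusted p = 0.0686). With no filter on low counts the entry was not called. Under reads outside Muribaculaceae the same entry fell (log2 change -2.24, edgeR, adjusted p = 0.0178), beside 16.9% of entries that were lower. Under total reads 2 of 8 rose, Angelakisella massiliensis (log2 change 1.17, adjusted p = 0.0148) and Pseudobutyricicoccus sp003477405 (1.16, adjusted p = 0.0381), both in edgeR and beside 40.8% of entries that were higher. The latter was lost in 9 of 20 fits that left out 1 sample each, with an adjusted p of up to 0.0797. Anaerotruncus sp000403395, which held 534 of the 610 reads of its genus, had a log2 change of 1.71 under total reads (edgeR, adjusted p = 0.0606). In a permutation test of the share of all reads 5 species entries were higher, beside 32.7% of 104 entries, and they included Acutalibacter timonensis (adjusted p = 0.0190).

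The batches were compared in the same model. Under TMM 0 of 8 member genera differed between batch E56A and batch E53B by edgeR, beside 11.9% of the 59 genera tested, and 2 of the 8 had an unadjusted p under 0.05. Acutalibacter was lower in batch E56A by 0.78 on the log2 scale (edgeR, adjusted p = 0.190), and by 0.95 with DESeq2 (adjusted p = 0.0192), where 8.47% of genera were lower. CAG-272, a family known only by a genome code, had 59 of its 62 reads in batch E53B, in 7 of 10 samples. In that family Avispirillum had 44 reads in 7 samples of batch E53B and 0 reads in batch E56A. RUG13077, the other genus of CAG-272, had 15 and 3 reads.

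By treatment, Avispirillum was found in 3 control and 4 FO samples, all of batch E53B, with 13 and 31 reads. The FO effect of 0 of 8 member genera differed between the batches under TMM by edgeR, with 0 of 8 at an unadjusted p under 0.05, and 0.0% of all 59 genera passed. DESeq2 called 1 of the 59, or 1.69%, which was no member. In batch E53B alone 0 members passed under TMM, beside 19.7% of 61 genera, and Anaerotruncus rose under total reads (log2 change 1.81, edgeR, adjusted p = 0.0343), beside 25 of the 61 genera, or 41%, that were higher. Its share of all reads did not pass the exact permutation test in that batch (p = 0.119, adjusted p = 0.206). Hydrogenoanaerobacterium was the 1 member genus that did (exact p = 0.00794, adjusted p = 0.0329), beside 26.5% of 83 genera that were higher. In batch E56A alone 0 members and 0 of all 62 genera (0.0%) passed under each of the 3 scalings in edgeR, with 11 genera at an unadjusted p under 0.05 under TMM, 16 under total reads and 10 under reads outside Muribaculaceae.

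Finally, each family was set against Oscillospiraceae in the same sample, as the log2 ratio of their reads with a pseudocount of 0.5, a measure that reads of Muribaculaceae do not enter. Oscillospiraceae, a relative with many butyrate producers, held 3.28% ± 1.48 (SD, n = 10) of all reads in control feces and 8.73% ± 3.39 (SD, n = 10) in FO feces, with a log2 change of 1.40 under total reads (edgeR, adjusted p = 0.000246) and 0.30 under TMM (edgeR, adjusted p = 0.495). The log2 ratio of Ruminococcaceae was -4.43, -3.63 and -2.92 at the lowest, median and highest control sample and -5.20, -4.38 and -3.54 in FO samples. The groups overlapped, with 4 of 10 FO samples below every control sample and 4 of 10 control samples above every FO sample.

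The mean ratio of Ruminococcaceae was lower in FO feces by 0.73 on the log2 scale (two-sided permutation test, p = 0.00511), and its p adjusted over 30 families, 0.0511, did not pass. In this test 3.33% of families were lower. With labels permuted within batch the adjusted p was 0.0270, with 3 of the 30 families, or 10%, lower, and with a pseudocount of 1 it was 0.0473. The difference was -0.74 in batch E53B (exact permutation test, p = 0.0397) and -0.72 in batch E56A (exact permutation test, p = 0.0317), with adjusted p of 0.132 and 0.476 that did not pass. Leaving out 1 sample at a time gave -0.82 to -0.64 with an adjusted p from 0.0245 to 0.114, and it passed without FO replicate 3, FO replicate 5 or control replicate 10.

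Without Ruminiclostridium_E, the ratio of the rest of Ruminococcaceae was -4.01 ± 0.43 (SD, n = 10) in control and -4.48 ± 0.51 (SD, n = 10) in FO feces, a difference of -0.47. For Acutalibacteraceae the difference was -0.27 (two-sided permutation test, adjusted p = 0.613) and for Butyricicoccaceae -0.34 (adjusted p = 0.553). These 2 differences had opposite signs in the batches, at -0.72 and -0.77 in batch E53B and 0.18 and 0.09 in batch E56A.

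**Figure D5:**
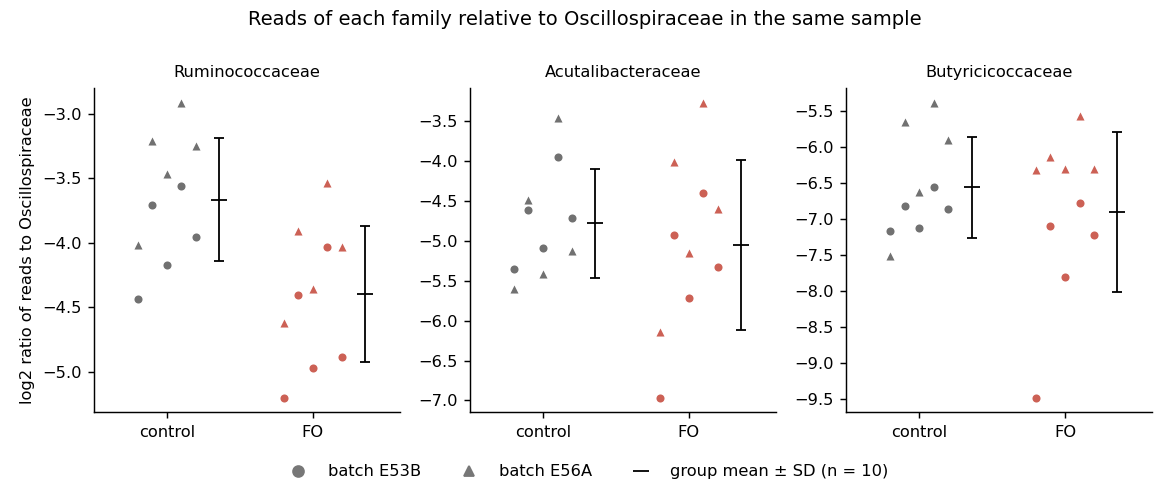
Log2 ratio of the reads of Ruminococcaceae, Acutalibacteraceae and Butyricicoccaceae to those of Oscillospiraceae in each sample, with circles for batch E53B, triangles for batch E56A and bars for the group mean ± SD (n = 10). Ruminococcaceae lies lower in FO samples, with 4 of 10 below every control sample, and the other families overlap more.

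Of other taxa of the class, given for comparison, Lachnospiraceae had a log2 change of 1.20 under total reads (edgeR, adjusted p = 0.000199) and 0.06 under TMM (edgeR, adjusted p = 0.924). Of 8 family entries of the order Christensenellales 4 were tested, and 0 of the 4 passed under TMM. Under total reads Borkfalkiaceae (log2 change 1.19, edgeR, adjusted p = 0.00491) and the reads with no family assigned (2.67, adjusted p = 0.00430) rose, whereas CAG-552 (0.84, adjusted p = 0.0824) and CAG-314 (0.26, adjusted p = 0.518) did not pass.

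The number of member species entries expected in 17218 reads, the depth of the shallowest sample, was 5.91, 16.3 and 19.5 at the lowest, median and highest control sample and 12.1, 17.9 and 22.0 in FO samples. The groups overlapped, with 1 of 10 FO samples above every control sample. The means were 15.1 ± 4.14 (SD, n = 10) and 17.5 ± 2.75 (SD, n = 10). Counted by genus they were 12.6 ± 2.98 (SD, n = 10) and 14.8 ± 2.10 (SD, n = 10).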

How the data were processed

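Bacterial DNA from feces of 20 mice was amplified over the V4 region and sequenced from both ends. Reads were demultiplexed with bcl2fastq 2.2, according to the submitters' processing notes. The study's methods name cutadapt for trimming, vsearch for joining pairs, and QIIME2 for quality and chimera filters, for clustering into operational taxonomic units and for a naive Bayes classifier trained on Greengenes2. The authors deposited whole-number read counts per taxon without normalization. The family, genus and species tables were used, with mice in rows that carry the labels' names. A short V4 read often does not separate species, and entries with a blank or missing name were kept as their own.

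Counts were tested with edgeR 4.0.16 (quasi-likelihood, filterByExpr by treatment, TMM, batch as a term) in R 4.3.3, over all taxa of a rank, with Benjamini-Hochberg adjustment at 5%. Replicates are separate samples, and cages are not given, so p-values measure the spread between samples. Shares of at least 0.01% on average and log2 ratios were compared by two-sided permutation tests with 100000 resamples, or exactly over all 252 splits within a batch (Python 3.11.15, scipy 1.17.1). Fewer resamples were used for the log2 ratios with a sample left out. Both tests were run on simulated data, with no fall in Muribaculaceae and, for the permutation test, normal values in place of sparse shares. These runs therefore do not bear on the choice of scaling. The members and lists were chosen with earlier results of these data known. Named were every member family, genera with counts in at least 3 samples up to 20 by mean share, species entries likewise up to 15, and any member that passed under 1 of the 3 scalings. Phocea, Hydrogeniiclostridium and UBA5905 fall outside this rule and were named after their values were seen. The 2 lists of genera, plant fibre or starch degraders and butyrate producers, and the list of comparison families (Oscillospiraceae, Lachnospiraceae, Christensenellales) came from known roles. Alternatives were DESeq2 1.42.0, its size factors in edgeR, limma 3.58.1 on centred log ratios, other scalings and filters, a fit without batch, fits within 1 batch and fits that omit a sample. The filter by the design matrix, which tests 28 families and 74 genera, the samples left out under the other scalings the ratio without Ruminiclostridium_E and the means of the role lists without each sample were added after seeing the data. The t-tests that the study's methods name were not used.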

Additional observations from a re-analysis of the deposited data

Results flagged for a closer look

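Within groups of 10 samples, a sample stood far from the others when its gap to the nearest one exceeded Dixon's critical share of the group's range at the 95% level. Of 96 groups checked, 20 held such a value. These lay in 7 samples, all of batch E53B, and what moved them was not tested. Chance flags about 5% of groups of independent values, which gives no count to expect here, since each entry was checked under both shares and in 6 of the 20 groups every other sample was at 0. FO replicate 9 held 0.339% of all reads and 0.725% of the reads outside Muribaculaceae as Acutalibacter, against at most 0.122% and 0.291% in the other FO samples. It also held 0.0827% and 0.177% as Eubacterium_R, against at most 0.0414% and 0.0843%. Control replicate 9 held 0.117% and 0.561% as Ruthenibacterium, against at most 0.0603% and 0.262% in the other control samples. Control replicate 8 held 0.827% of the reads outside Muribaculaceae as Fimenecus, against 0.0552% to 0.457%. Control replicate 7 held 0.0742% of all reads as Eubacterium_R, against at most 0.0380%, and 0.0109% as QAMM01, against at most 0.00531%. FO replicate 8 held 0.0730% as Paludicola, against at most 0.0342%, and 0.0219% as QAMM01, against at most 0.00795%. FO replicate 10 held 0.0441% as Butyricicoccus_A_77030, against at most 0.0228%.

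The remaining such values belonged to entries with few reads. RUG13077 was at 0.00544% of all reads and 0.0261% of those outside Muribaculaceae in control replicate 9, and at 0 in the other control samples. It was at 0.0195% and 0.0371% in FO replicate 8, against at most 0.00740% and 0.0163% in the other FO samples. Harryflintia was found in control replicate 8 alone among controls, at 0.00684% and 0.0382%. Reads of Acutalibacteraceae without a genus were found in control replicate 6 alone among controls, at 0.00431% and 0.0187%.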

How the results depend on the processing

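How many members passed moved with the scaling, the test, the filter and the samples used. Member families that passed numbered 0 under TMM, 2 under total reads (beside 52.0% of all families higher) and 2 in the permutation test of the share of all reads (45.2%). Member genera numbered 1 under TMM, 4 under total reads (beside 42.4% of all genera higher) and 5 in that permutation test (36.1%). In edgeR under TMM they numbered 0 with no filter on low counts (beside 4.03% of genera lower), 0 in batch E53B alone (19.7%) and 0 in batch E56A alone (0.0%). Ruminiclostridium_E did not pass the filter in batch E53B alone, so it could not be called there. Member species entries numbered 1 under TMM (beside 14.1% of entries lower), 2 under total reads (40.8% higher) and 5 in the permutation test (32.7%). In edgeR under TMM the 1 entry, Ruminiclostridium_E siraeum, was not called with no filter or in either batch alone. For the difference between batches the member genera numbered 0 under TMM, beside 11.9% of all genera, and 1 with DESeq2, Acutalibacter, beside 8.47% that were lower. Leaving out 1 sample at a time gave 0 families under TMM and reads outside Muribaculaceae and 1 to 2 under total reads. Ruminiclostridium_E was called lower in 16 of 20 such fits under TMM and 19 under reads outside Muribaculaceae, with no other member genus called. Under total reads 1 to 5 genera passed, most often 3. All of them were higher except Ruminiclostridium_E, which was lower without FO replicate 9 (edgeR, adjusted p = 0.0477). Species entries under TMM numbered 0 to 1. The difference in the share of all members, 0.374 percentage points of all reads, ran from 0.333 to 0.427 in these fits and was -0.247 of the reads outside Muribaculaceae and -0.576 of the Clostridia reads. The log2 ratio of Ruminococcaceae to Oscillospiraceae passed at -0.73 with labels permuted within batch and at -0.73 with a pseudocount of 1, and ran from -0.82 to -0.64 with a sample left out, that of Acutalibacteraceae from -0.47 to -0.06 and that of Butyricicoccaceae from -0.49 to -0.06. In batch E56A the latter 2 were 0.18 and 0.089. Log2 changes that turned, none of them past the threshold under TMM, were those of Acutalibacteraceae (-0.031 with no batch term, -0.39 in batch E53B, -0.11 to 0.38 with a sample left out), Ruminococcaceae (0.70 under total reads, 0.18 in batch E56A, -0.40 to 0.0096 with a sample left out), Butyricicoccaceae (-0.28 in batch E53B, -0.093 to 0.44 with a sample left out), Fimenecus (-0.41 in batch E53B), Angelakisella (-0.077 in batch E53B), Ruthenibacterium (0.11 under total reads), Pseudobutyricicoccus (-0.030 under reads outside Muribaculaceae, -0.14 in batch E53B) and Ruminococcaceae without a genus (-0.10 under reads outside Muribaculaceae). The cause was not tested. No paired analysis was possible because replicate numbers were given in accession order and the labels pair no control mouse with an FO mouse. With 32 to 564 member reads per sample, entries of few reads had no precise share.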
